A study of Xenopus tropicalis with 17 samples.

Results

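In tailbud tadpoles of the frog Xenopus tropicalis, 52 of 26531 genes were near silent in wild type embryos and present in embryos null for sf3b4. A gene was chosen when it had 15 or more raw read counts in each of the 2 null pools of stage 35 and 5 or less in each of the 2 wild type pools of that stage. Names that start with cry, hox or krt were left out, and with them the set would have had 53 genes. The members were thus selected on the raw counts of the null and wild type pools of stage 35, and the difference between these groups is described below with no test. Levels in heterozygous embryos and at stages 15 and 25 were not part of the choice. They show which members are normally expressed earlier, which are hardly seen at any stage sampled, and whether null embryos already differed at stage 25.

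Polyadenylated RNA from whole embryos was sequenced at stages 15, 25 and 35, which span the neurula, tailbud and early tadpole. The genotypes were Sf3b4 null, Sf3b4 heterozygous and wild type at each stage, and the labels give neither the mutation nor a treatment. Each of the 17 libraries came from its own pool of 5 embryos. There were 2 pools in each group except the stage 15 null group, which had 1. With 2 pools a group, p-values measure only the spread between these pools. The samples are whole embryos, so fewer cells of a type and less RNA per cell cannot be told apart.

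The sf3b4 gene encodes a protein of SF3b, the part of the U2 small nuclear ribonucleoprotein that helps to recognise the branch point of an intron before splicing. A gene that is off in healthy tadpoles can be one that acts earlier, such as a regulator of the germ layers, or one used in other tissues or later, such as a germ cell or immune gene. It can also be a short RNA that is cut from an intron of another gene, as small nucleolar RNAs (snoRNAs) are. Single genes with roles of these kinds occurred among the 52, though the fixed lists of germ cell and immune genes described below held none of them.

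The sf3b4 gene itself had lower mean levels in null than in wild type pools at every stage, without loss of its transcript. Levels are given as CPM, which are read counts scaled to a common library size after correction for composition. At stage 15 sf3b4 stood at 151.9 CPM in the single null pool, 200.5 ± 33.3 CPM in heterozygous pools and 248.6 ± 54.8 CPM in wild type pools (SD, n = 2). At stage 25 it averaged 111.7 ± 1.89 CPM in null, 117.9 ± 10.5 CPM in heterozygous and 145.2 ± 1.84 CPM in wild type pools (SD, n = 2 each). At stage 35 it averaged 77.5 ± 3.77 CPM in null, 78.9 ± 20.3 CPM in heterozygous and 95.1 ± 16.4 CPM in wild type pools (SD, n = 2 each). The difference of null from wild type did not pass the edgeR quasi-likelihood test at stage 25 (log2 fold change -0.38 ± 0.20 SE, adjusted p = 0.433). At stage 35 it did not pass either (log2 fold change -0.30 ± 0.20 SE, edgeR adjusted p = 0.394). Null and wild type pools did not overlap at any stage, and heterozygous pools overlapped null pools at stages 25 and 35. Over all genes tested, null pools lay below wild type pools without overlap in 27.7% at stage 15 and 21.9% at stage 25. What the mutation does to the transcript was not analysed here.

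Library totals ran from 11714437 to 21639041 counts. At stage 35 a count of 15 equalled 0.884 and 1.09 CPM in the null pools and 1.01 and 1.14 CPM in the wild type pools. The first principal component, which held 70.5% of the variance, ordered the stages. The null pools of stage 35 lay at 128 and 135 on it, against 150 and 156 for heterozygous and 152 and 152 for wild type pools, and stage 25 libraries lay between -23.7 and -7.59. The second wild type pool of stage 15 stood apart from the rest of its stage, at -129 against -166 to -157. All 8 marker lists of embryonic tissues had counts at every stage. At stage 35 the summed muscle markers were 3860 and 4211 CPM in null pools and 2718 and 2955 CPM in wild type pools. The epidermal markers were 743.7 and 816.1 CPM in null pools and 263.8 and 582.2 CPM in wild type pools, while the eye markers were 361.8 and 403.8 CPM in null pools and 655.3 and 902.2 CPM in wild type pools. The neural markers were 607.7 and 615 CPM in null pools and 755.5 and 985.8 CPM in wild type pools, and the blood markers 1347 and 1599 CPM in null pools and 838.8 and 1212 CPM in wild type pools. The heart markers were 164.6 and 169.4 CPM in null pools and 176.1 and 183.7 CPM in wild type pools, and the kidney and endoderm markers overlapped. The part of these shifts in the levels described below was not tested.

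In null pools of stage 35 the 52 members had group means between 1.05 and 54.97 CPM with a median of 2.02 CPM, against 0 to 0.358 CPM with a median of 0.175 CPM in wild type pools. In that contrast, 4.8% of the 17742 genes tested were called higher, and the rule itself took 0.196% of all genes. Most members were low genes even in null embryos: 33 had fewer than 30 counts in at least 1 null pool. The reverse rule, 15 or more counts in both wild type pools and 5 or less in both null pools, took 11 genes. The null pools differed from each other by a median of 1.32-fold over the members, and by more than 3-fold for 4 of them, LOC101730633, LOC100485630, smc1b and LOC100491399.

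Just inside the rule stood spaca6, a gene known in mammals for sperm and egg fusion, with 19 and 15 counts in null pools and 2 and 3 in wild type pools. LOC116411259 had 24 and 15 counts in null pools and 1 and 0 in wild type pools. On the wild type side LOC101730633 had 16 and 162 counts in null pools and 5 and 0 in wild type pools, and LOC101731963 had 16 and 20 in null pools and 4 and 5 in wild type pools. Just outside were LOC100498389, with 14 and 368 counts in null pools and none in wild type pools, and dysf, the gene of the muscle membrane repair protein dysferlin. dysf had 797 and 611 counts in null pools and 6 and 2 in wild type pools, so a single wild type count kept it out. The other genes just outside were LOC101733137, with 30 and 14 counts in null pools and 2 and 4 in wild type pools, and tnip3, with 66 and 86 counts in null pools and 6 and 3 in wild type pools. The margin was populated: 10 genes missed the null limit by 1 count, and 19 missed the wild type limit by 1.

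**Figure D1:**
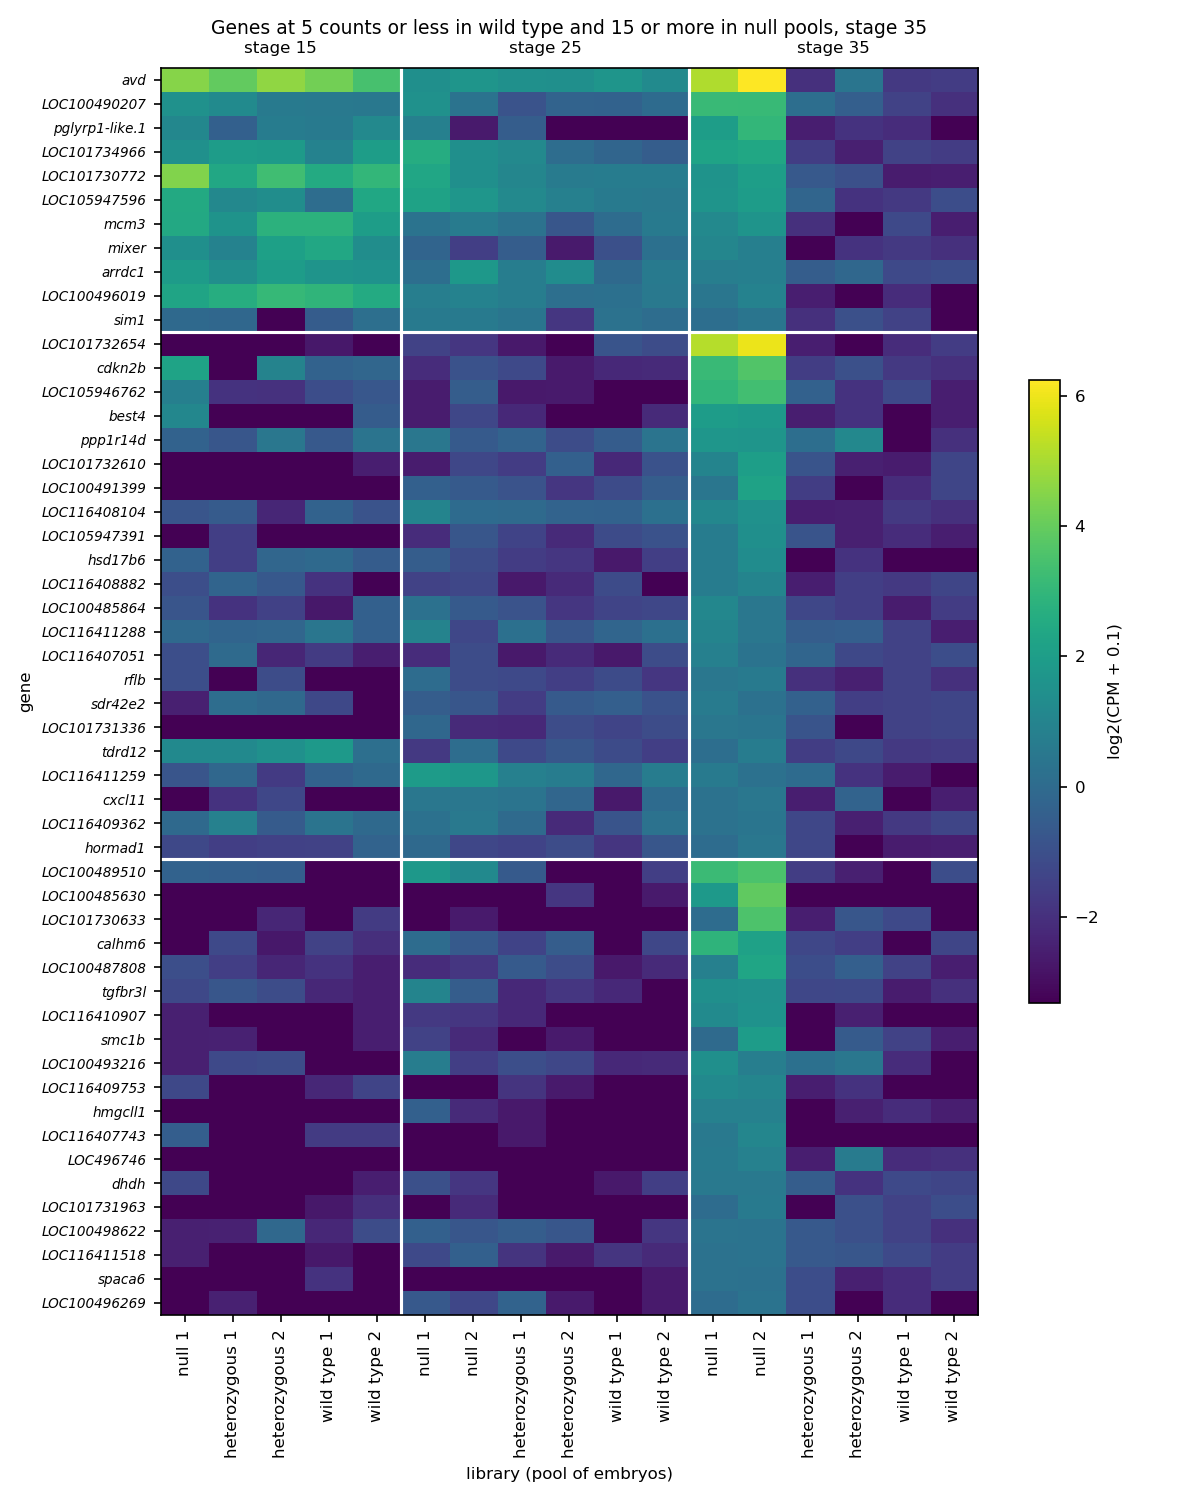
Level of each of the 52 members (rows) in each of the 17 libraries (columns), as log2(CPM + 0.1). White lines part the stages and, from top to bottom, 11 members present earlier in wild type, 22 intermediate members and 19 not detected earlier; within each stage null pools stand left of heterozygous and wild type pools. The bright stage 35 null columns are what the members were chosen for, while heterozygous columns of stage 35 are dark and the top block is bright at stage 15 in every genotype.

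The wild type pools of stages 15 and 25 divided the members by their normal history. A member was taken as present earlier when both wild type pools of stage 15, or both of stage 25, had 15 or more counts. It was taken as not detected earlier when all 4 of these pools had 5 or less, and as intermediate otherwise. This gave 11 members present earlier, 22 intermediate and 19 not detected earlier. The first of these counts was 17 without the first wild type pool of stage 25 and 15 without the second of stage 15, which stood apart. Of the 11, 4 were present at stage 15 alone, 1 at stage 25 alone and 6 at both. No stage after 35 was sampled, so whether a member is a late gene in healthy embryos cannot be read from these libraries.

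Among the members present earlier, avd, named for avidin, the biotin-binding protein known from birds' eggs, had the most counts. It had 34.1 and 75.9 CPM in null pools of stage 35, 0.153 and 1.22 CPM in heterozygous pools and 0.202 and 0.227 CPM in wild type pools. That is 247-fold more in null than in wild type pools, with a 95% interval of 113 to 674 that covers counting error only. At stage 15 avd had 22.9 CPM in the null pool, 15.3 and 24.9 CPM in heterozygous pools and 18.6 and 10.8 CPM in wild type pools. At stage 25 it had 2.63 and 3.12 CPM in null pools, 2.69 and 2.63 CPM in heterozygous pools and 3.04 and 2.27 CPM in wild type pools. At stage 15 the null pool lay within the range of the other genotypes, at stage 25 the pools of all genotypes lay close together, and each genotype was lower at stage 25 than at stage 15. The null pools of stage 35 stood above every earlier pool of any genotype.

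mixer, a homeobox regulator of endoderm formation in the gastrula, differed in that its level in null pools of stage 35 was below that of null and wild type pools of stage 15. It had 2.0 and 1.67 CPM in null pools of stage 35, none and 0.162 CPM in heterozygous pools, and 0.202 and 0.152 CPM in wild type pools. At stage 15 mixer had 2.61 CPM in the null pool, 1.80 and 4.28 CPM in heterozygous pools and 5.28 and 2.49 CPM in wild type pools. Its neighbour in the genome, mix1, a homeobox gene of the same family, had 0.0590 and 0.145 CPM in null pools of stage 35 and none in wild type pools.

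mcm3, a subunit of the helicase that opens DNA for replication, had a similar course. It had 2.18 and 2.97 CPM in null pools of stage 35, against 0.337 and 0.0757 CPM in wild type pools, and 5.38 CPM in the null pool of stage 15, against 6.95 and 3.95 CPM in wild type pools. Of the 11 members present earlier, 5 had a lower mean in null pools of stage 35 than in wild type pools of stage 15. The ratio of these means ran from 0.228 to 6.61 over the 11, with a median of 1.13.

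pglyrp1-like.1 belongs to the peptidoglycan recognition proteins, which bind bacterial cell walls. It had 3.89 and 7.89 CPM in null pools of stage 35, 0.0765 and 0.162 CPM in heterozygous pools and 0.135 CPM and none in wild type pools, after 1.45 and 2.19 CPM in wild type pools of stage 15. sim1, a transcription factor of hypothalamus and kidney, was by this limit the member present at stage 25 alone in wild type. In wild type pools of stage 15 it had 11 and 14 counts, or 0.592 and 1.02 CPM, just under the limit of 15 counts. It had 1.0 and 1.23 CPM in null pools of stage 35 and 0.269 CPM and none in wild type pools, and at stage 25 it had 1.42 and 1.41 CPM in null pools, 1.23 and 0.184 CPM in heterozygous pools, and 1.11 and 0.983 CPM in wild type pools. Wild type embryos thus had sim1 transcripts at stages 15 and 25 and few at stage 35. arrdc1, an arrestin family gene with roles in protein sorting, had 1.59 and 1.67 CPM in null pools of stage 35 and 0.337 and 0.379 CPM in wild type pools, below the 3.02 and 2.85 CPM of wild type pools of stage 15.

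Several members of this class carry placeholder names. LOC100490207 had 8.90 and 8.69 CPM in null pools of stage 35, 0.995 and 0.649 CPM in heterozygous pools and 0.269 and 0.152 CPM in wild type pools. LOC101734966 had 4.6 and 5.14 CPM in null pools of stage 35, 0.230 and 0.0811 CPM in heterozygous pools and 0.269 and 0.227 CPM in wild type pools. LOC101730772 had 2.95 and 4.05 CPM in null pools of stage 35 and 0.0673 and 0.0757 CPM in wild type pools, while its single null pool of stage 15 had 21.6 CPM, against 5.71 and 7.90 CPM in wild type pools. The files and the RefSeq gene table give these genes no function.

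**Figure D2:**
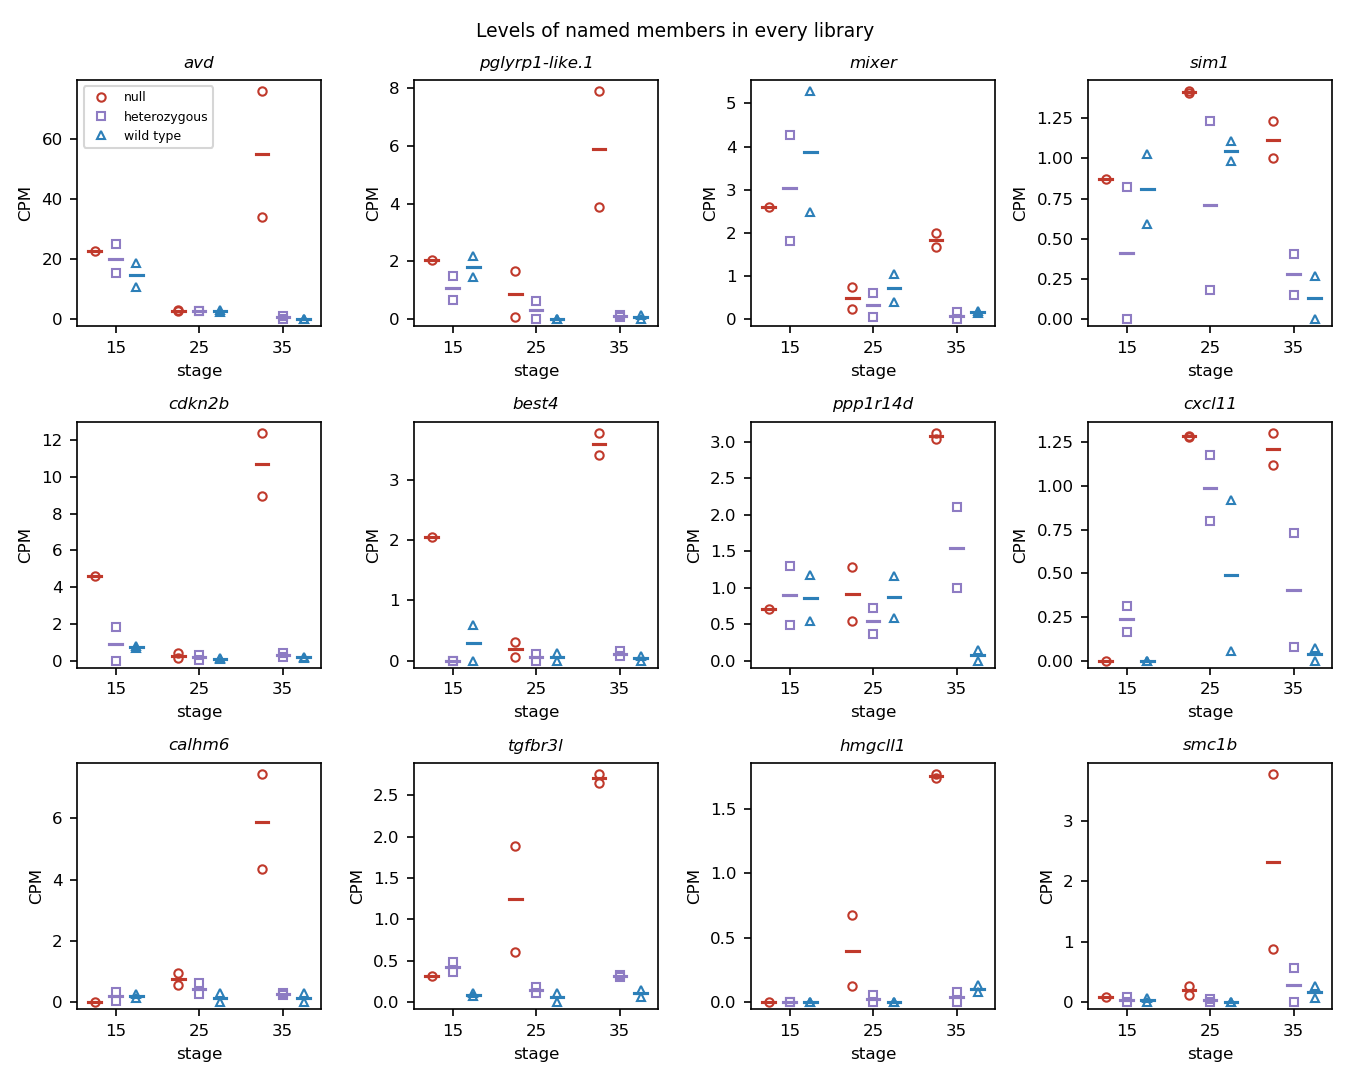
CPM of 12 named members (panels, each with its own scale from 0) at stages 15, 25 and 35; each open symbol is a pool, with null (circles) left of heterozygous (squares) and wild type (triangles), and short bars are group means. At stage 35 avd reached 34.1 and 75.9 CPM in null pools while mixer at 2.0 and 1.67 CPM stayed below its own wild type level of stage 15; ppp1r14d is the panel in which heterozygous pools come nearest to the null pools.

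Of the intermediate members, LOC101732654 showed the widest stage 35 contrast. It had 608 and 864 counts in null pools, 1 and 0 in heterozygous pools and 2 and 3 in wild type pools, a ratio of null to wild type of 268 with a 95% counting interval of 115 to 828. Before stage 35 it never exceeded 8 counts in any library of any genotype. The RefSeq intervals place it over part of LOC116411565, which had 0.0590 and 0.0724 CPM in null pools of stage 35 and none in wild type pools, so the overlapped gene stayed near 0. LOC101732610 had 1.89 and 3.98 CPM in null pools of stage 35 and 0.0673 and 0.303 CPM in wild type pools.

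cdkn2b, an inhibitor of the cyclin-dependent kinases that start the cell cycle, had 8.96 and 12.4 CPM in null pools of stage 35, 0.230 and 0.405 CPM in heterozygous pools and 0.202 and 0.152 CPM in wild type pools. The ratio of null to wild type was 58.9, with a 95% counting interval of 25.0 to 183. At stage 15 cdkn2b had 4.59 CPM in the single null pool, none and 1.83 CPM in heterozygous pools, and 0.700 and 0.804 CPM in wild type pools. At stage 25 it had 0.135 and 0.428 CPM in null pools and 0.117 and 0.123 CPM in wild type pools. The gene was thus high in null libraries of stages 15 and 35 and low in those of stage 25.

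best4, a bestrophin anion channel, had a similar course. It had 3.77 and 3.40 CPM in null pools of stage 35 and none and 0.0757 CPM in wild type pools, and at stage 15 it had 2.06 CPM in the null pool, none in either heterozygous pool, and none and 0.585 CPM in wild type pools. LOC105946762, a long noncoding RNA gene that overlaps sema6d, had 7.84 and 10.2 CPM in null pools of stage 35 and 0.337 and 0.0757 CPM in wild type pools, with 1.66 CPM in the null pool of stage 15 against 0.377 and 0.512 CPM in wild type pools. ppp1r14d, an inhibitor of protein phosphatase 1, had 3.12 and 3.04 CPM in null pools of stage 35, 0.995 and 2.11 CPM in heterozygous pools, and none and 0.152 CPM in wild type pools. It was seen at 0.584 and 1.17 CPM in wild type pools of stage 25 and then hardly at all at stage 35.

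The members not detected earlier had a median of 0 or 1 counts in wild type pools of stages 15 and 25. calhm6, of a family of large-pore membrane channels, had 7.43 and 4.34 CPM in null pools of stage 35, 0.306 and 0.243 CPM in heterozygous pools, and none and 0.303 CPM in wild type pools. tgfbr3l, a relative of the betaglycan coreceptor for TGF-beta ligands, had 2.65 and 2.75 CPM in null pools of stage 35, 0.306 and 0.324 CPM in heterozygous pools, and 0.0673 and 0.152 CPM in wild type pools. smc1b, the cohesin subunit used in meiosis, had 0.884 and 3.77 CPM in null pools of stage 35, with a 4.26-fold gap between them, and 0.269 and 0.0757 CPM in wild type pools. The calhm6 and tgfbr3l pools of the 3 genotypes kept the same order of null well above heterozygous, with heterozygous and wild type pools close together.

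Of the placeholder genes in this class, LOC100489510 had 9.20 and 11.4 CPM in null pools of stage 35, 0.230 and 0.0811 CPM in heterozygous pools, and none and 0.379 CPM in wild type pools. LOC100485630 had 60 and 208 counts in null pools of stage 35 and none in heterozygous or wild type pools, at least 81.4-fold more in null than in wild type when the wild type pools are set to a floor of 3 counts in all. LOC101730633 owed its mean largely to the second null pool, at 11.7 CPM against 0.943 CPM in the first. Over all 52 members, wild type pools of stage 35 had no count in 5.

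**Figure D3:**
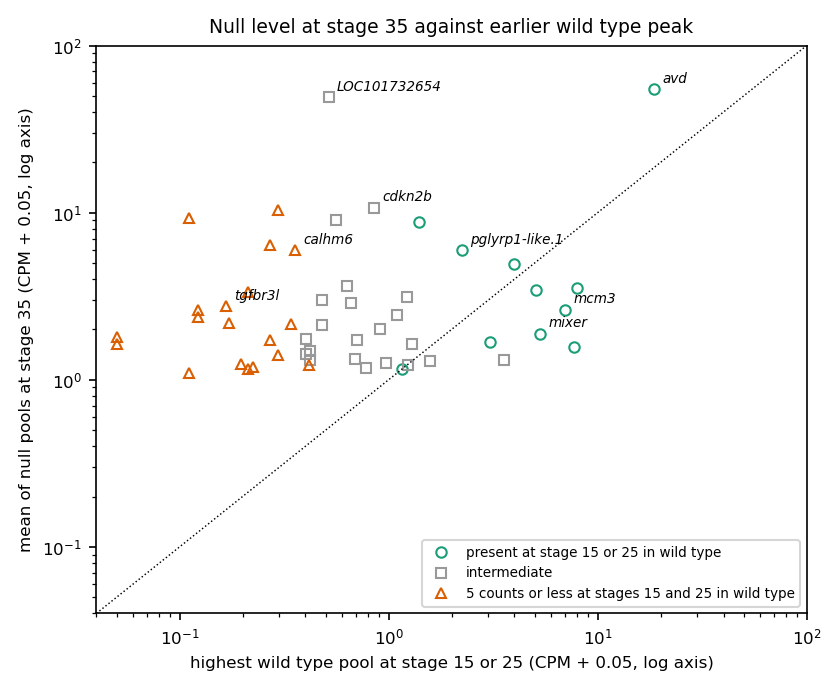
Mean CPM of the 2 null pools of stage 35 (y axis) against the highest CPM of the 4 wild type pools of stages 15 and 25 (x axis), both with 0.05 added and on log axes; each symbol is a member, its shape and colour give the class by wild type history, and the dotted line marks equal levels. All 19 members not detected earlier and 19 of 22 intermediate members lie above the line, but 5 of the 11 present earlier do.

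The stage 35 null level was set against the whole wild type course. The mean of the null pools exceeded the mean of wild type pools of stage 15 in 46 members and of stage 25 in all 52. It exceeded every single wild type pool of both stages in 43, of which 5 were among the 11 present earlier, 19 among the 22 intermediate and 19 among the 19 not detected earlier. The highest of the 17 libraries was a null pool of stage 35 for 41 members and another library for 11. Both null pools of stage 35 stood above both null pools of stage 25 in 42 of 52 members, where 39.4% of all genes tested did. The choice of members fixed much of this, so these counts only describe their levels.

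Heterozygous pools of stage 35 were low in nearly all members. No member had 15 or more counts in both heterozygous pools, 29 had 5 or less in both, and 23 fell between. The group means ran from 0 to 1.55 CPM in heterozygous pools, with a median of 0.272 CPM, and the heterozygous mean was a median of 11.9% of the null mean. Both null pools stood above both heterozygous pools in 51 of 52 members in CPM, where 25.1% of all genes tested did. The exception was LOC496746, at 1.42 and 1.74 CPM in null pools, 0.0765 and 1.46 CPM in heterozygous pools and 0.135 and 0.152 CPM in wild type pools, so that its heterozygous pools disagreed with each other. Heterozygous pools lay above both wild type pools in 17 members, or 32.7%, against 14.4% of all genes tested, but the wild type pools had been chosen low, and nothing is read from that share. The null pools had been chosen high, so nothing is read from the 51 of 52 members or from the 11.9% either.

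The 5 members with the highest heterozygous means were ppp1r14d, LOC100493216, LOC100490207, LOC496746 and arrdc1. LOC100493216, a long noncoding RNA gene, had 2.65 and 1.59 CPM in null pools of stage 35, 1.07 and 1.30 CPM in heterozygous pools, and 0.135 CPM and none in wild type pools. For this gene, ppp1r14d, LOC100490207 and arrdc1, both heterozygous pools were above both wild type pools and below both null pools. arrdc1 had 0.612 and 0.811 CPM in heterozygous pools. The same rule with heterozygous in place of null pools took 1 gene of 26531, sh3bp1, which is not a member, while null over heterozygous pools took 55.

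The choice used no library of stage 25, and there null pools had the higher mean in most members. The mean CPM was higher in null than in wild type pools in 43 of 52 members, lower in 6 and equal in 3, where 50.3% of all 17742 genes tested had a positive difference. Over all 52 members the median fitted log2 fold change of null over wild type was 0.96, against 0.00246 over all genes. It was 1.1 over the 45 members that could be given a fold change once 5 with no wild type count were set to their lower bound. Both null pools lay above both wild type pools in 25 members, or 48.1%, against 20.4% of all genes, and below in 1, or 1.92%, against 21.9% of all genes. The members are low genes at this stage, with a median of 0.240 CPM in wild type pools against 12.4 CPM over all genes tested, and low counts spread ratios more widely. A null pool cannot lie below a wild type pool with no count, as for hmgcll1 and smc1b. Only 19 of the 52 members passed the filter on low counts when these groups alone were fitted. Others were tested through groups that include the null pools in which members were chosen high. Nothing is therefore read from these shares and medians. Of the marker lists, 3 also had no overlap between null and wild type pools of stage 25. The kidney markers were 108.1 and 116.6 CPM in null pools and 82.8 and 98.1 CPM in wild type pools, the heart markers 71.0 and 78.3 CPM in null pools and 67.9 and 68.3 CPM in wild type pools, and the endoderm markers 131.4 and 144.6 CPM in null pools and 161.7 and 163.4 CPM in wild type pools. Their part in the member levels was not tested.

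**Figure D4:**
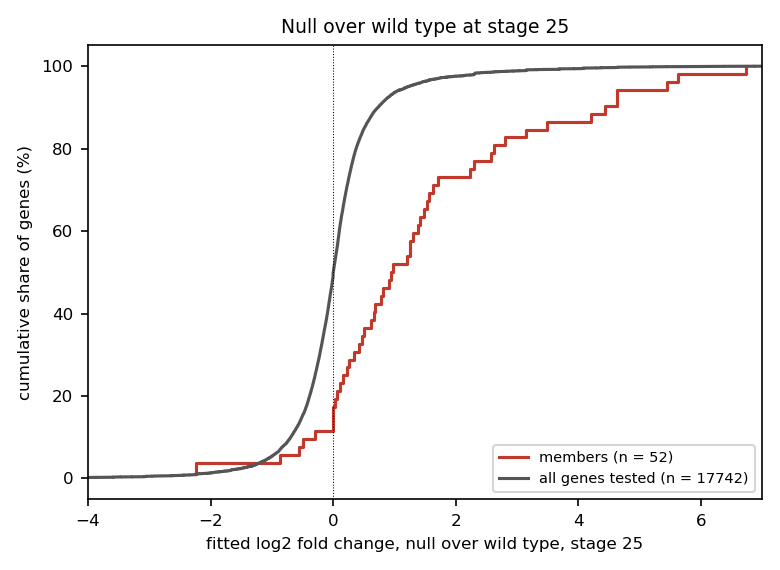
Cumulative share of genes (y axis, %) by fitted log2 fold change of null over wild type pools at stage 25 (x axis, shown from -4 to 7), for the 52 members (red) and all 17742 genes tested (grey); the dotted line marks no change. The member curve lies to the right, with a median of 0.96 against 0.00246 for all genes. Only 19 of the 52 members passed the filter on low counts when these groups alone were fitted, so nothing is read from the gap.

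Few single members were called at stage 25. With edgeR's quasi-likelihood test and Benjamini-Hochberg adjustment over all genes, 2 members rose in null pools and none fell, where 0.789% of all genes rose and 0.986% fell. LOC101734966 had 5.93 and 2.63 CPM in null pools, 2.18 and 0.980 CPM in heterozygous pools, and 0.759 and 0.614 CPM in wild type pools. Its log2 fold change of null over wild type was 2.62 ± 0.57 (SE; edgeR adjusted p = 0.0316). tgfbr3l had 1.89 and 0.611 CPM in null pools, 0.112 and 0.184 CPM in heterozygous pools, and 0.117 CPM and none in wild type pools. Its log2 fold change was 4.21 ± 0.97 (SE; edgeR adjusted p = 0.0382). Neither call held without the first null pool or without either wild type pool, when no member was called. When only the null and wild type pools of stage 25 were fitted, LOC101734966 had an edgeR adjusted p of 0.0610, and tgfbr3l did not pass the filter on low counts, which it had passed through other groups. With no such filter, the edgeR adjusted p was 0.00271 for LOC101734966 and 0.0256 for tgfbr3l.

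At an unadjusted p under 0.05, 13 members were higher in null pools of stage 25 and none lower, where 6.52% of all genes were higher and 7.14% lower. The limit set by the filter on low counts holds for these shares too. LOC100489510 came next in order of p, with 3.37 and 2.2 CPM in null pools, 0.560 CPM and none in heterozygous pools, and none and 0.246 CPM in wild type pools (edgeR adjusted p = 0.0574). It was also the single member among the 22 genes that the same count rule would take at stage 25. pglyrp1-like.1 had 1.69 and 0.0611 CPM in null pools of stage 25 and none in wild type pools, at least 9.28-fold more with the wild type pools at a floor of 3 counts, and its null pools disagreed by far (edgeR adjusted p = 0.156). hmgcll1, a relative of the enzyme that splits HMG-CoA, had 0.674 and 0.122 CPM in null pools and none in wild type pools, at least 4.28-fold more (edgeR adjusted p = 0.166).

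Several of the members highest in null pools at stage 35 were not called at stage 25 and had low or like levels in both groups there. avd had a log2 fold change of 0.11 of null over wild type at stage 25. LOC101732654 had 0.270 and 0.183 CPM in null pools of stage 25, below the 0.467 and 0.369 CPM of wild type pools. LOC100485630 had no count in null pools of stage 25, and 1 in all in wild type pools. For these genes a high level in null pools of stage 35 came without a higher one at stage 25.

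Null against heterozygous pools of stage 25 shares the null pools with the comparison above, and its values stand beside it. The mean was higher in null pools in 45 members, lower in 5 and equal in 2, with a median log2 fold change of 0.95. Null pools lay above heterozygous pools without overlap in 26 of 52 members, against 19.3% of all genes, and below in 2, or 3.85%, against 21.3%. edgeR called no member and 12 genes over the whole table, 0.0338% of genes in each direction. DESeq2 gave an adjusted p to 17 of the 52 members and called none of them, with 171 genes called in all. At an unadjusted p under 0.05, 9 members were higher and none lower, where 4.7% of all genes were higher and 4.93% lower. With only these groups fitted, 20 of the 52 members passed the filter on low counts, so nothing is read from these shares.

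No member was called between heterozygous and wild type pools. At stage 25, neither edgeR nor DESeq2 called a member (0.0% of all genes by edgeR, 6 genes in all by DESeq2). At an unadjusted p under 0.05, 2 members were higher and 2 lower, where 1.36% of all genes were higher and 1.47% lower. Heterozygous pools lay above wild type pools without overlap in 8 members, or 15.4%, against 14.7% of all genes, and below in 3, or 5.77%, against 15.3%. The heterozygous mean was higher in 29 members and lower in 20, with a median log2 fold change of 0.12. At stage 15, edgeR called no member and 0.0% of all genes. DESeq2 gave an adjusted p to 11 of the 52 members there and called none of them, with 8 genes called in all. At an unadjusted p under 0.05, 6 members were higher and 3 lower, where 0.885% of all genes were higher and 3.76% lower. Heterozygous pools lay above wild type pools without overlap in 7 members, or 13.5%, against 8.54% of all genes, and below in 5, or 9.62%, against 12.0%. Of these members, LOC100489510 had 0.656 and 0.626 CPM in heterozygous pools and none in wild type pools of stage 15, at least 6.85-fold more at a floor of 3 counts (edgeR adjusted p = 0.927). When only the groups compared were fitted, 16 of the 52 members passed the filter on low counts at stage 25 and 19 at stage 15.

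By presence, 14 members had 15 or more counts in both null pools of stage 25, 7 in both heterozygous pools and 7 in both wild type pools. Of the 14, 9 were among the members present earlier in wild type, 4 were intermediate and 1, LOC100489510, was not detected earlier in wild type. Conversely, 14 members had 5 or less in both null pools, 20 in both heterozygous pools and 25 in both wild type pools. Neither null pool of stage 25 had a count of 5 members.

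The single null pool of stage 15 gives values with no replicate. It stood above both wild type pools in 21 members, or 40.4%, and below both in 6, where 24.0% of all genes stood above and 27.7% below. In 8 members the null pool and both wild type pools had no count, and in the other 17 the null pool lay between the wild type pools or equalled one of them. It stood above all 4 other pools of stage 15 in 14 members, or 26.9%, against 16.4% of all genes. cdkn2b, best4, LOC105946762 and LOC101730772 were among these 14. A null pool cannot stand below a wild type pool with no count, as for best4, dhdh and sdr42e2. Many members also passed the filter on low counts through the later null pools in which they were chosen high. Nothing is therefore read from these shares.

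In wild type embryos the members did not share a course between stages 15 and 25. By edgeR over all groups, 5 members rose at stage 25 and 9 fell, where 23.4% of all genes rose and 16.9% fell. The wild type pools of stage 25 lay above those of stage 15 without overlap in 11 members, or 21.2%, against 37.0% of all genes, and below in 16, or 30.8%, against 30.4%. The 9 that fell were avd, mixer, mcm3, pglyrp1-like.1, tdrd12, LOC100496019, LOC101730772, LOC101734966 and LOC105946762. LOC105946762 did not pass the filter on low counts when only the wild type pools of these stages were fitted. It was tested through other groups, and those include the null pools in which the members were chosen high. LOC101734966 was not called when only these wild type pools were fitted (edgeR adjusted p = 0.0513). Over all groups, avd changed by a log2 fold change of -2.47 ± 0.48 SE (edgeR adjusted p = 9.5e-04), and mixer by -2.42 ± 0.79 SE (edgeR adjusted p = 0.0237). pglyrp1-like.1 had no count in wild type pools of stage 25 and 57 at stage 15, at least 19.7-fold lower at a floor of 3 counts. tdrd12, which acts in the silencing of transposons by small RNAs in germ cells, had 0.351 and 0.246 CPM in wild type pools of stage 25 and 3.50 and 1.02 CPM in those of stage 15 (edgeR adjusted p = 0.00783).

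The 5 that rose were LOC101732654, LOC100491399, LOC105947391, cxcl11 and rflb. None of them passed the filter on low counts when only the wild type pools of stages 15 and 25 were fitted. They were tested through other groups, and those include the null pools of stage 35 in which the members were chosen high. cxcl11, a chemokine that attracts T cells in mammals, had 0.0584 and 0.921 CPM in wild type pools of stage 25 and none at stage 15, at least 5.15-fold more at that floor. rflb, a regulator of filamin in the cytoskeleton, had 0.351 and 0.184 CPM in wild type pools of stage 25 and none at stage 15, at least 2.90-fold more. As the rule requires, all of these genes were at 5 counts or less in each wild type pool of stage 35. The calls that rose rested on each pool. They numbered 2 without the first and 0 without the second wild type pool of stage 15, which stood apart, and 2 without the first and 1 without the second of stage 25. The falls also varied with the pools. Without the first wild type pool of stage 15 the log2 fold change was -1.77 for mixer and -1.75 for tdrd12, against -2.85 and -3.51 without the second. When pool number was added to the fit as a block, 7 members fell, not all of them among the falls named above. avd and tdrd12 were among these 7. That fit called 5080 genes in all, against 7151 without the block. In that fit mixer, mcm3 and LOC101734966 were not called (edgeR adjusted p = 0.215, 0.0653 and 0.152).

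By type of gene, 43 of the 52 members were protein coding, or 82.7%, against 82.2% of all genes, and 5 were long noncoding RNAs, or 9.62%, against 8.88% of all genes. Placeholder names were carried by 31 members, or 59.6%, against 40.1% of all genes. snoRNAs made up 4 members, or 7.69%, against 1.29% of all genes, a class looked at after the values had been seen. snoRNAs guide chemical modification of ribosomal RNA and in vertebrates are mostly cut from introns of host genes. On chromosome 8, which carries sf3b4, lay 8 members, or 15.4%, against 13.1% of all genes. The members were spread over all 10 chromosomes, and hsd17b6 and LOC116408882 were the only members with another member within 3 genes.

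The 4 snoRNA members lie inside genes that were themselves abundant. LOC116408104 lies in rpl23, LOC116411259 in rps7 and LOC116411288 in rps12, 3 genes of ribosomal proteins, and LOC116409362 lies in LOC100495928. LOC116408104 had 2.06 and 2.75 CPM in null pools of stage 35 and 0.202 and 0.152 CPM in wild type pools, while rpl23 had 2272 and 2281 CPM in null pools and 2318 and 3147 CPM in wild type pools. rps7 had 1733 and 1704 CPM in null pools and 1693 and 1657 CPM in wild type pools, and its snoRNA had 1.42 and 1.09 CPM in null pools and 0.0673 CPM and none in wild type pools. rps12 had 2630 and 2615 CPM in null pools and 3634 and 4736 CPM in wild type pools. Both null pools of this host were thus lower where its snoRNA was higher, though rps12 was not called (edgeR adjusted p = 0.0608). LOC100495928 was higher, at 62.8 and 61.5 CPM in null pools of stage 35 and 37.6 and 35.4 CPM in wild type pools. This host was called higher (log2 fold change 0.77, edgeR adjusted p = 0.0209), where 4.8% of all genes tested were. Its snoRNA was also higher, at 1.12 and 1.23 CPM in null pools and 0.202 and 0.303 CPM in wild type pools.

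At stage 25, which the choice did not use, LOC116411259 had 3.71 and 3.24 CPM in null pools, 1.68 and 1.53 CPM in heterozygous pools, and 0.818 and 1.54 CPM in wild type pools (edgeR adjusted p = 0.303). Over the 176 other snoRNA genes tested at stage 25, the median log2 fold change of null over wild type was 0.18, against 0.00246 over all genes. The summed level of all snoRNA genes other than members overlapped there, at 790 and 603.2 CPM in null pools and 673.1 and 821.1 CPM in wild type pools. Of all 180 snoRNA genes tested, 1 was called higher in null pools and none lower, and 58.3% had a positive difference, against 50.3% of all genes. The libraries were selected for polyadenylated RNA, and how many of these reads come from mature snoRNA, a host intron or a host transcript was not tested. Counting by strand is not stated, and reads of a host and of a gene inside it cannot be told apart by these tables.

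**Figure D5:**
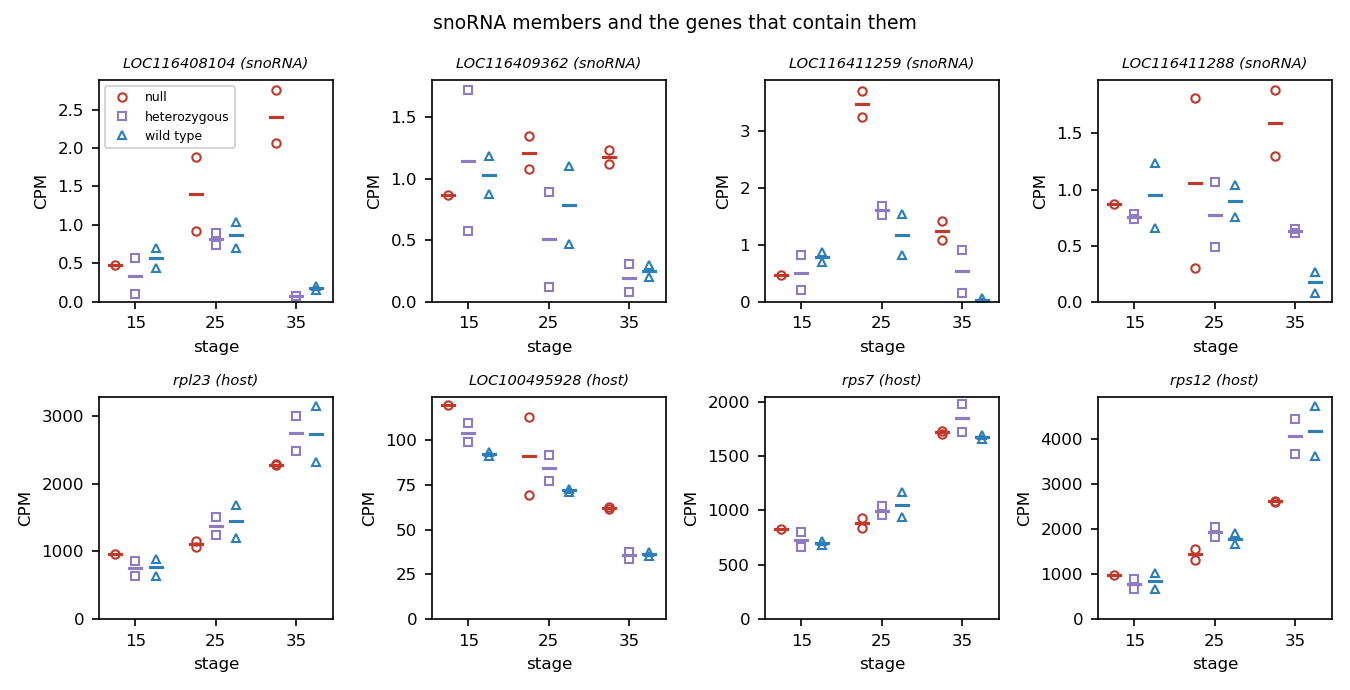
CPM of the 4 snoRNA members (top row) and of the gene that contains each (bottom row) at stages 15, 25 and 35, each panel with its own scale from 0; each open symbol is a pool, with null (circles) left of heterozygous (squares) and wild type (triangles), and short bars are group means. At stage 35 the snoRNA in rps12 had 1.89 and 1.30 CPM in null pools against 0.269 and 0.0757 CPM in wild type pools while rps12 itself had 2630 and 2615 CPM in null pools against 3634 and 4736 CPM in wild type pools. The host LOC100495928 was instead higher, at 62.8 and 61.5 CPM in null pools against 37.6 and 35.4 CPM in wild type pools.

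In all, 11 members overlap another gene in the RefSeq intervals, or 21.2%, against 17.4% of all genes. dhdh, a dihydrodiol dehydrogenase, lies inside pih1d1 and had 1.36 and 1.38 CPM in null pools of stage 35 and 0.337 and 0.303 CPM in wild type pools. pih1d1 had 30.6 and 28.4 CPM in null pools and 31.7 and 37.7 CPM in wild type pools. LOC116409753, a long noncoding RNA gene inside exoc4, had 2.24 and 1.96 CPM in null pools and none in wild type pools, and exoc4 had 21.3 and 17.3 CPM in null pools and 21.2 and 23.8 CPM in wild type pools. In both cases the outer gene had the lower mean in null pools, but neither was called (edgeR adjusted p = 0.535 for pih1d1 and 0.584 for exoc4). The exoc4 pools overlapped.

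Pathways that could hold such genes were examined as whole lists. Of 28 genes of the early embryo found in the tables, 1, mixer, was a member, and 18 had 5 counts or less in both wild type pools of stage 35, so most early genes that were silent in wild type did not meet the rule. None of the 24 tested was called at stage 25, with a median log2 fold change of null over wild type of -0.05. The lists of p53 response, stress response, oocyte and germ plasm, immune and inflammatory, photoreceptor, and muscle membrane and contraction genes held no member. Of the 18 oocyte and germ plasm genes tested, the 17 immune genes and the 17 stress genes, none was called at stage 25, with medians of -0.07, -0.06 and 0.04.

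In each of the other 3 lists, 1 gene rose in null pools of stage 25 and none fell. Of 22 p53 response genes tested it was eda2r, of the TNF receptor family (list median 0.06). Of 21 photoreceptor genes it was rp1l1 (list median -0.05), and of 16 muscle genes it was dysf (list median 0.16). Over all genes tested at stage 25, 0.789% rose and 0.986% fell. The lists were made with earlier results of these data known, so nothing is read from these counts of calls. dysf had 47.8 and 38.2 CPM in null pools of stage 25 and 0.175 CPM and none in wild type pools. Its log2 fold change was 8.78 ± 1.08 (SE; edgeR adjusted p = 0.00277), and at stage 35 it missed the rule by 1 wild type count.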

How the data were processed

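Per the file headers, the authors deposited 1 table of raw read counts per gene for each of 17 libraries, each from a pool of 5 whole embryos. Per the labels' protocols, libraries were stranded and selected for polyadenylated RNA. Reads were handled with bcl2fastq 2.20 and STAR, per the submitters' processing notes. The counting program, the use of strand, the genome build and the annotation are not given in the sources used here, so no coordinates are printed. Biotypes, neighbours and overlaps came from a RefSeq gene table of UCB_Xtro_10.0, which matched 26530 of 26531 names. Its intervals may differ from those used in counting.

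Members were chosen on raw counts. CPM values use library sizes with edgeR's TMM factors over 17 libraries. Groups were compared with edgeR 4.0.16 (glmQLFit and glmQLFTest) in R 4.3.3 on 16 libraries, with 1 coefficient for each of the 8 groups of 2 pools and 8 residual degrees of freedom. filterByExpr (minimum count 10, minimum total 15) left 17742 genes. All 52 members passed, many through the null pools of stage 35. P-values were two-sided and adjusted by Benjamini-Hochberg over all genes tested, with a threshold of 0.05. Standard errors were derived from each fold change and the F statistic. DESeq2 1.42.0 served as an alternative. The scripts were tested on simulated counts. Ratios carry exact 95% binomial intervals, which cover counting error only, and a group without a count was set to a floor of 3 counts over the group.

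The members and gene lists were chosen with earlier results of these data known. Named genes were the 8 members with the highest null mean of stage 35 in each history class, members called at stage 25, list members, those at the edge of the rule and the 5 highest in heterozygous pools, with at most 3 placeholder names a class. The snoRNA members with their hosts, and LOC100491399, LOC105947391, LOC100496019, LOC116408882, LOC116409753, sim1, tdrd12, cxcl11, rflb, hsd17b6, hormad1, sdr42e2, hmgcll1 and dhdh, were named after their values were seen. No sequences were used here.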

Additional observations from a re-analysis of the deposited data

How the results depend on the processing

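Counts near 0 limit the choice of members. With a wild type limit of 3 counts there were 27 members and with 10 there were 171. With a null minimum of 30 counts there were 19 and with 10 there were 114. Leaving out 1 of the 4 pools gave 90 to 169. Scaling by TMM gave 44, of which 39 were shared. Members present earlier numbered 7 at 30 counts, 18 at 10, and 11 to 17 with a pool left out. Members present in null pools of stage 25 numbered 6 at 30 counts. Those with 15 or more counts in both heterozygous pools of stage 35 numbered 2 after TMM scaling, 2 at 10 counts and 0 to 4 with a pool left out.

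Members called in null against wild type at stage 25 numbered 4 with no filter on low counts, 1 when only those groups were fitted, which was neither of the 2 reported, and 0 to 2 with a pool left out. DESeq2 called 2, of which 1 was shared, and gave an adjusted p to 20 of the 52. The genes called in all moved too. They were 315 in the reported fit, 584 with no filter, 125 with only those groups and 683 by DESeq2. Null against heterozygous gave 1 with no filter, where 149 genes were called in all, against 12 in the reported fit. The number higher in mean CPM in null than in wild type pools ran from 37 to 42 with a pool left out. Wild type stage 25 against 15 gave 7 with only those groups, of which 0 rose, and 7 to 9 with a pool left out. The fit of only the wild type groups called 4182 genes in all, against 7151 in the reported fit. The cause of these changes was not tested, except that the fits of only the groups compared tested 19 and 18 of the 52 members.

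Same-numbered pools did not deviate together, so the numbers give no pairing. At stage 25 the correlations were 0.0989 for null and wild type, -0.103 for null and heterozygous and -0.0356 for heterozygous and wild type. For heterozygous and wild type the value was -0.223 at stage 15 and -0.366 at stage 35. At stage 35 it was 0.0256 for null and wild type and 0.0708 for null and heterozygous. With the replicate block, null against wild type gave 0 members and wild type stage 25 against 15 gave 8, of which 1 rose. The genes called in all were then 69 and 5080. With crossed pairing, null against heterozygous at stage 25 and heterozygous against wild type at stage 15 gave 0. Of 89 alternatives, 61 gave a count equal to the reported one or within 1.5 times of it, and 28 moved it further. Many of the 61 set 0 beside 0, and a like count says nothing of which members it held. A called member changed sign in 0 of the 89.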

Other observations

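Some members are known from germ cells, and their stage 35 levels are given here as values. hormad1, which acts on chromosome axes in meiosis, had 0.943 and 1.3 CPM in null pools of stage 35, 0.306 CPM and none in heterozygous pools, and 0.0673 and 0.0757 CPM in wild type pools. At stage 25 hormad1 had 0.877 and 0.306 CPM in null pools, 0.280 and 0.368 CPM in heterozygous pools, and 0.175 and 0.491 CPM in wild type pools, so the genotypes overlapped there. tdrd12 had 1.0 and 1.52 CPM in null pools of stage 35 and 0.202 and 0.227 CPM in wild type pools, with 2.21 CPM in the null pool of stage 15 within the 3.5 and 1.02 CPM of wild type pools. The oocyte and germ plasm list held none of these members.

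Some other named members are given here as values, chosen after these were seen. hsd17b6, a dehydrogenase of steroids and retinoids, had 1.53 and 2.39 CPM in null pools of stage 35, none and 0.162 CPM in heterozygous pools, and none in wild type pools, at least 17.9-fold more in null than in wild type at a floor of 3 counts. It had 0.862 and 0.585 CPM in wild type pools of stage 15. sdr42e2, of the short-chain dehydrogenase family, had 1.47 and 1.09 CPM in null pools of stage 35 and 0.269 and 0.303 CPM in wild type pools. hmgcll1 had 1.77 and 1.74 CPM in null pools of stage 35, none and 0.0811 CPM in heterozygous pools, and 0.135 and 0.0757 CPM in wild type pools, and no count in any library of stage 15. cxcl11 had 1.12 and 1.3 CPM in null pools of stage 35, 0.0765 and 0.730 CPM in heterozygous pools, and none and 0.0757 CPM in wild type pools. At stage 25 cxcl11 had 1.28 CPM in each null pool, 1.18 and 0.796 CPM in heterozygous pools, and 0.0584 and 0.921 CPM in wild type pools. Its neighbour cxcl10, a chemokine of the same family, had none and 0.145 CPM in null pools of stage 35 and none in wild type pools.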
